A study of Mus musculus with 4 samples.

Results

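Fos, Fosb, Jun, Junb, Egr1, Atf3, Ier2, Nr4a1, Zfp36 and Btg2 are immediate early genes, which cells transcribe within minutes of a stimulus and without making new protein first. These 10 genes, of 32285 in the count tables, were taken by name, and all 10 were found in every library and in the authors' deposited averages. They were followed in lung macrophages of female mice, sorted by flow cytometry and profiled by droplet single-cell RNA sequencing. The groups were MMTV-HER2 mice at an early stage (16 weeks), wildtype FVB mice at 16 weeks, MMTV-HER2 mice at a late stage (32 weeks) and wildtype FVB mice at 32 weeks, with 1 library each. In MMTV-HER2 mice the HER2 oncogene is driven by a mammary tumour virus promoter, which acts mainly in mammary epithelium. Whether the transgene is active in the lung or its macrophages was not tested. The labels call the early stage an early lesion stage and describe late-stage females as having palpable tumours. Genotypes are taken from the sample titles, because the strain entry of each sample lists both. The labels do not give the number of mice behind a library. All lungs were digested with collagenase at 37 degrees for 30 minutes before the sort.

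Fos and Fosb proteins pair with Jun and Junb proteins to form AP-1, a transcription factor that drives growth, inflammatory and stress genes. Egr1 is a zinc finger activator, Atf3 a stress-induced member of the ATF family that often represses inflammatory genes, Nr4a1 an orphan nuclear receptor and Ier2 a small nuclear protein. Zfp36 and Btg2 act on RNA: Zfp36 (tristetraprolin) binds AU-rich cytokine messages and, like Btg2, brings in the CCR4-NOT complex that removes their poly(A) tails. In alveolar macrophages, the resident phagocytes of the air space, and interstitial macrophages of the tissue between, these genes respond to microbes and cytokines, and they are also known to rise during enzymatic digestion of tissue. The part of digestion in the values given here was not tested.

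The members' promoters carry known landing sites for the factors that start this response, chiefly CREB family proteins at the cyclic AMP response element (CRE) and SRF at the CArG box. RefSeq promoters (GRCm38.p6) were matched for 8 of the 10 genes. In the 250 bases before the transcript start that RefSeq gives, the CRE core, tgacg or its complement cgtca, was found in 6 of the 8 (Fos, Fosb, Junb, Atf3, Nr4a1 and Btg2), against 17.8% of 32851 promoters of all genes searched alike. Windows of Fos, Nr4a1, Fosb, Junb, Btg2 and Zfp36 are shown 5′ to 3′ on the strand of the gene, with the CRE cores, the full CRE of Btg2 and the CArG box of Zfp36 in capitals.
Fos, chr12:85473750-85473829, plus strand, 140 to 61 bases before the start: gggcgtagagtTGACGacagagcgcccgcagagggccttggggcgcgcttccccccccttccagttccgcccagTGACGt
Nr4a1, chr15:101266766-101266825, plus strand, 80 to 21 bases before the start: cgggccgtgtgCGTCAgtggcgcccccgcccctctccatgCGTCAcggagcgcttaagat
Fosb, chr7:19310066-19310125, minus strand, 80 to 21 bases before the start: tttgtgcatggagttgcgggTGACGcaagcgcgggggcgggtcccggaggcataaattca
Junb, chr8:84978829-84978868, minus strand, 120 to 81 bases before the start: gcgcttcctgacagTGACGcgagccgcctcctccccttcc
Btg2, chr1:134079296-134079335, minus strand, 180 to 141 bases before the start: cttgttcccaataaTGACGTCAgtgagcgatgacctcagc
Zfp36, chr7:28379259-28379308, minus strand, 80 to 31 bases before the start: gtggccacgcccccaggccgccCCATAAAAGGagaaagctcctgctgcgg
The full CRE, tgacgtca, was found in Btg2 alone of the 8, where it takes in both of that promoter's cores, and in 1.55% of all promoters. The CArG box was found in Zfp36 alone of the 8, and in 1.47% of all promoters. Sites farther than 250 bases before the start, and any site of Ier2 and Egr1, were not searched, so other members may hold a CArG box there. The Egr binding sequence gcgggggcg or gcgtgggcg, on either strand, was found in Fosb, Nr4a1 and Zfp36, against 3.06% of all promoters. The AP-1 sequence tgactca, or its complement tgagtca, was found in none of the 8 windows and in 4.46% of all promoters. Nr4a1 held 4 CRE cores, of which the pair nearest the start is shown, and the Atf3 core, 7 to 3 bases before the start, is not shown. These matches describe letters and not binding.

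Barcodes with fewer than 1000 UMIs, fewer than 500 genes or over 10% mitochondrial UMIs were set aside, which left 5126 HER2 early, 5449 wildtype early, 6554 HER2 late and 5129 wildtype late cells at medians of 3801 to 4478 UMIs. A UMI is a counted RNA molecule. Levels are in CPM, the UMIs of a gene per 1000000 UMIs of the cells named. AM cells, alveolar macrophage-like, gave at least 0.4% of their UMIs to Chil3, Ear1, Ear2, Fabp1, Lpl and Plet1, and numbered 4245 to 5702 per library. IM cells, interstitial macrophage-like, held at least 5 UMIs of the complement genes C1qa, C1qb and C1qc and numbered 330 to 661, and the 191 to 286 remaining cells per library are called other cells. All 11 alveolar markers were detected in AM cells of every library, summing to 17330 to 20650 CPM, against 602 to 1042 CPM in IM cells. All 11 interstitial markers were detected in IM cells, summing to 23660 to 27350 CPM, against 1298 to 1708 CPM in AM cells. The alveolar list holds the 6 genes of the AM rule and the interstitial list the 3 of the IM rule. These contrasts therefore follow in part from how the cells were chosen and are no independent check of the classes. The wildtype early IM cells stood apart: 134 of 330 also held 3 or more UMIs of T cell markers and gave 45.4% of the UMIs of that class, against 3.23 to 7.51% in the other libraries. IM results are therefore given with and without such cells. Pairs of libraries shared 1 to 13 cell barcodes, where 3.87 to 5.26 would be shared at random. No doublets were removed.

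IM cells carried more of most of these messages than AM cells from the same library. Gm42418, a transcript that overlaps ribosomal RNA, took 16.5 to 19.6% of AM UMIs over the 4 libraries. It took 3.74 to 6.18% of UMIs in IM cells and 5.48 to 7.99% in other cells. Gm42418 is part of the total by which CPM is scaled, so a lower CPM in AM cells follows in part from the scaling. Btg2 stood at 564 (HER2 early), 546 (wildtype early), 534 (HER2 late) and 362 CPM (wildtype late) in IM cells, against 141, 131, 135 and 116 CPM in AM cells, and the classes did not overlap. For Jun, IM cells had 333, 284, 274 and 228 CPM and AM cells 91.8, 94.0, 114 and 94.7 CPM in the same library order. For Zfp36 the values were 186, 171, 165 and 140 CPM in IM cells, against 50.9, 51.1, 61.0 and 66.0 CPM in AM cells. Each of these 3 genes was higher in the IM cells of all 4 libraries than in the AM cells of any, as were Fos, Junb and Atf3. The share of all genes with this order was not computed. Classes were compared with edgeR's quasi-likelihood test on UMIs summed per library and class, with TMM scaling, library as a block and Benjamini-Hochberg adjustment over 11897 genes. Btg2 was 3.21-fold higher in IM cells (log2 1.68, SE 0.089, adjusted p = 2.56e-07), Zfp36 2.44-fold (log2 1.29, SE 0.12, adjusted p = 1.07e-05) and Jun 2.38-fold (log2 1.25, SE 0.11, adjusted p = 6.95e-06). At an adjusted p under 0.05, 6 of the 10 rose in IM cells, where 32.0% of all genes did, and 1 fell, where 30.8% of all genes did. The other 3 that rose were Atf3 (log2 0.63, adjusted p = 0.00235), Junb (0.58, adjusted p = 0.000965) and Fos (0.49, adjusted p = 0.0135) in the same edgeR test. The 8 sums come from 4 libraries of different mice, 1 for each genotype and stage, so the p-values measure the spread between these libraries.

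Fosb was the one that fell. This close relative of Fos, with which it shares partners, stood at 33.2, 37.9, 61.6 and 40.2 CPM in IM cells of HER2 early, wildtype early, HER2 late and wildtype late, against 58.5, 59.5, 74.9 and 72.1 CPM in AM cells. The ranges of the classes overlapped, but in each library the IM value was below the AM value (1.82-fold lower, log2 -0.87, SE 0.11, adjusted p = 0.000114 by edgeR). For Fos itself the IM values were 465, 391, 447 and 336 CPM, against 211, 255, 223 and 295 CPM in AM cells. Ier2 (log2 0.21, adjusted p = 0.138), Nr4a1 (0.48, adjusted p = 0.103) and Egr1 (-0.09, adjusted p = 0.513) did not pass the test in IM cells. Without the cells that held T cell markers the same 7 genes were called, in the same directions, with Jun at log2 1.12 and Egr1 at -0.26 (31.2% of 11884 genes higher and 30.7% lower). Scaling matters for the size of these values: with library totals in place of TMM the median of all genes was log2 0.26, against 0.013, and 42.9% of genes were called higher and 20.2% lower. Under that scaling Egr1 was at 0.16 and not called, and Ier2 and Nr4a1 joined the genes called higher. The call for Fos was lost without the HER2 early library (log2 0.30, adjusted p = 0.14) and without the HER2 late library (0.39, adjusted p = 0.074) in the edgeR fits. Calls were also gained in them: Egr1 was called lower in IM cells without HER2 early (log2 -0.30, adjusted p = 0.039), Ier2 higher without wildtype early (0.31, adjusted p = 0.017) and Nr4a1 higher without HER2 late (0.74, adjusted p = 0.031).

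**Figure D1:**
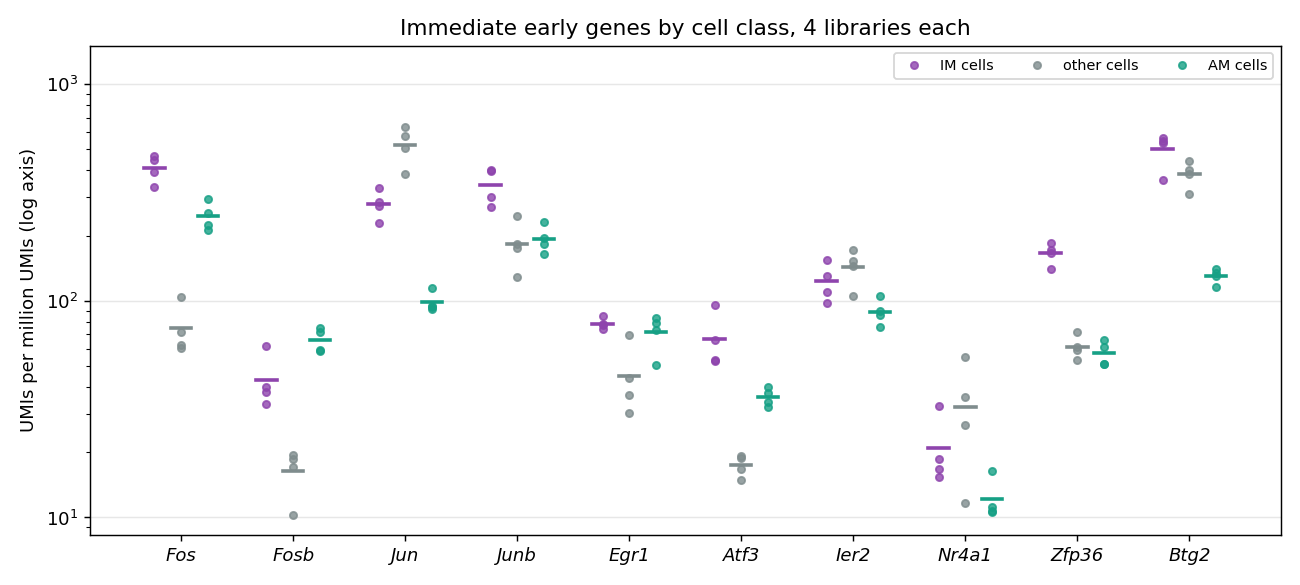
Levels of the 10 genes in CPM (log axis) in IM, other and AM cells; each point is 1 of the 4 libraries and each bar their mean. Btg2, Jun, Zfp36, Fos, Junb and Atf3 in IM cells lie above every AM value of the same gene. Fosb is lower in IM than in AM cells of each library, and Fos and Fosb are lowest in the other cells.

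The other cells, summed over all their types, carried less of Fos and Fosb, and more of Jun, than AM cells. Fos stood at 62.6 (HER2 early), 60.7 (wildtype early), 71.8 (HER2 late) and 104 CPM (wildtype late) in other cells, all below the lowest AM value of 211 CPM. It was 4.68-fold lower than in AM cells (log2 -2.23, SE 0.13, adjusted p = 3.21e-08, edgeR over 12622 genes). Fosb fell 5.53-fold (log2 -2.47, adjusted p = 1.61e-07), Atf3 2.92-fold (log2 -1.55, adjusted p = 2.06e-06) and Egr1 2.26-fold (log2 -1.18, adjusted p = 2.95e-05) in the same edgeR test. Jun went the other way, with 633, 385, 574 and 508 CPM in other cells, a 3.75-fold rise over AM cells (log2 1.91, SE 0.13, adjusted p = 1.36e-07 by edgeR). Btg2 rose 2.10-fold (log2 1.07, adjusted p = 1.27e-06) and Nr4a1 1.76-fold (log2 0.82, adjusted p = 0.0265), while Junb (log2 -0.58, adjusted p = 0.00102) and Zfp36 (log2 -0.38, adjusted p = 0.0256) fell by edgeR. Ier2 (log2 0.19, adjusted p = 0.245) did not pass. In all 3 rose and 6 fell, where 32.0% of all genes rose and 32.3% fell. With library totals in place of TMM the median of all genes was log2 0.47, against -0.027, with 49.0% of genes called higher and 16.8% lower. Zfp36 then stood at 0.12, and neither it nor Junb was called. The calls for Nr4a1 and Zfp36 were each lost when single libraries were left out, Nr4a1 without HER2 late or wildtype late and Zfp36 without wildtype early, HER2 late or wildtype late. Ier2 was called higher without wildtype early (log2 0.34, adjusted p = 0.019, edgeR).

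The make-up of the other cells differed between libraries. In wildtype early 155 of 286 held 3 or more UMIs of T cell markers and gave 47.85% of the UMIs of that class. The share of UMIs was 15.8 to 21.7% in the other libraries. The other cells are a mixture, so their levels were also summed by the marker list with the most UMIs in each cell, with at least 3 UMIs required. In 288 cells led by endothelial markers Jun reached 1126 CPM (95% Poisson interval 1081 to 1172), with 1183, 1186, 1047 and 1081 CPM in HER2 early, wildtype early, HER2 late and wildtype late. These cells gave 2356 of the Jun UMIs of the other cells, and T cell-marker cells, at 94.7 CPM of Jun (76.0 to 116.5), and B cell-marker cells, at 69.2 CPM (40.3 to 111), were not above AM cells. Jun was above the AM mean in cells led by fibroblast (326 CPM, 258 to 407) and NK cell markers (250, 162 to 369). It was also above that mean in cells led by monocyte (175, 127 to 236) and dendritic cell markers (169, 142 to 200). The endothelial-marker cells had 14.8 CPM of Fos (10.1 to 21.0) and 2.39 CPM of Fosb (0.78 to 5.58), from 31 and 5 UMIs. Fos was at 232 CPM in monocyte-marker cells (176 to 301), within the range of the AM libraries. It was at 129 CPM in dendritic cell-marker cells (106 to 156). AM cells averaged 98.7 ± 10.4 CPM of Jun and 246 ± 37.2 CPM of Fos (SD, n = 4 libraries), so the endothelial-marker cells were higher in one AP-1 subunit and lower in its partner. Btg2 stood at 692 CPM in 80 cells led by dendritic cell markers (635 to 751) and at 587 CPM in 58 cells led by monocyte markers (495 to 691), against 130 ± 10.8 CPM in AM cells. Nr4a1, which in mice is needed for Ly6c-low monocytes, was at 200 CPM in the monocyte-marker cells (148 to 264, from 49 UMIs), against 12.2 ± 2.83 CPM in AM cells. By library Nr4a1 in the monocyte-marker cells was at 118 (HER2 early), 81.5 (wildtype early), 302 (HER2 late) and 335 CPM (wildtype late), from 14, 11, 13 and 20 cells, so the pooled level mixes lower early and higher late values. In 247 cells led by T cell markers Fos stood at 47.9 CPM (34.9 to 64.0) and Btg2 at 360 CPM (322 to 400). The intervals cover counting error only, and no test was made between these small sets of cells.

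**Figure D2:**
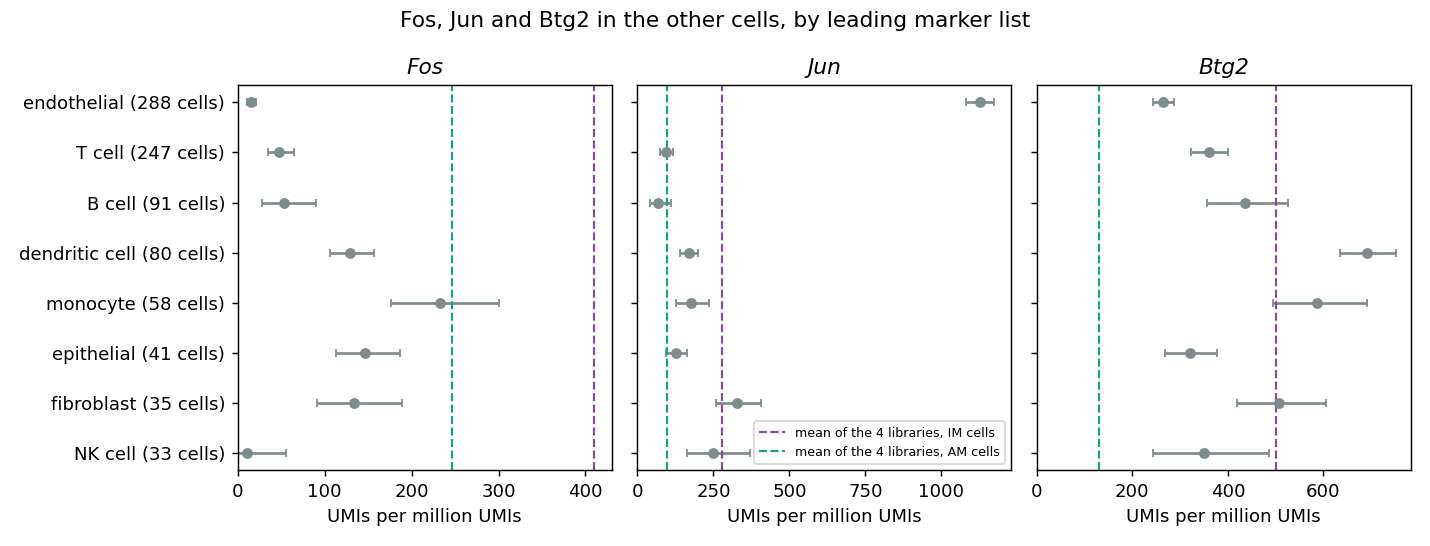
Fos, Jun and Btg2 in the other cells of all 4 libraries, grouped by leading marker list, in CPM; points are pooled levels with 95% Poisson intervals and dashed lines the 4-library means of IM and AM cells. Jun is at 1126 CPM in endothelial-marker cells, where Fos is at 14.8 CPM.

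Within AM cells the question was whether these genes differ between MMTV-HER2 and wildtype mice and with age. Each comparison is of 1 library with another, with no replicate check and no p-value, and a gene is counted as higher or lower when its fold is at least 1.25. Intervals of folds are exact conditional binomial 95% intervals of counting error only. The 10 genes together gave 921 CPM in HER2 early, 961 in wildtype early, 1079 in HER2 late and 1039 in wildtype late AM cells. The sums thus lay between 921 and 1079 CPM, while single genes took different orders.

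Fos was lower in each HER2 library than in either wildtype library. It stood at 211 CPM in HER2 early against 255 in wildtype early (log2 -0.27, -0.33 to -0.21), and at 223 in HER2 late against 295 in wildtype late (log2 -0.40, -0.45 to -0.35). It was the only one of the 10 with this order in AM cells, an order that 30.0% of 7162 genes had. The opposite order, which 3.43% of genes had, was seen for 3 members, Ier2, Nr4a1 and Btg2. Ier2 stood at 89.3 and 106 CPM in HER2 early and late, against 85.6 and 76.1 CPM in wildtype early and late. Btg2 stood at 141 and 135 CPM in HER2 early and late, against 131 and 116 CPM in wildtype early and late. Nr4a1 was at 11.1 and 16.5 CPM in HER2 early and late, against 10.7 and 10.6 CPM in wildtype early and late. The free RNA estimate described with the age comparison accounted for 0.415 and 6.20 of these CPM in HER2 early and late, against 1.39 and 1.43 CPM in wildtype early and late, so the higher Nr4a1 level in HER2 late went with more free RNA.

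At the early stage none of the 10 was 1.25-fold higher in HER2 AM cells (0.595% of 7064 genes were) and 1 was lower (1.36% of genes were). That gene was Egr1, at 50.6 CPM in HER2 early against 73.0 CPM in wildtype early (1.44-fold lower, log2 -0.53, -0.65 to -0.41). The Egr1 UMIs lay in few cells: the 1% of AM cells with the most gave 30.6% of them in HER2 early and 22.2% in wildtype early. Junb (log2 0.15, 0.085 to 0.22) and Btg2 (0.11, 0.031 to 0.18) were higher by less, Fos was at the log2 -0.27 given above, and the other 6 members (Fosb, Jun, Atf3, Ier2, Nr4a1 and Zfp36) lay between log2 -0.14 and 0.061 with intervals that included 0. The sum of the 10 differed by log2 -0.062 (-0.091 to -0.033).

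At the late stage the comparison of HER2 with wildtype sat on a general shift, since the median log2 of all 7212 genes was -0.20. As measured, 2 of the 10 were at least 1.25-fold higher in HER2 late (Ier2 and Nr4a1; 4.73% of genes) and 1 was lower (Fos; 28.5% of genes). With free RNA subtracted Ier2 alone was that much higher (log2 0.40), with Nr4a1 at log2 0.24, and the summed genes were at -0.015. No share of all genes was computed for that setting. Relative to the median of all genes, 6 were higher (12.5% of genes) and none lower (5.38% of genes), and 9 of 10 lay above 0. By its definition that scale puts as many genes above 0 as below it. The 6 were Jun, Junb, Atf3, Ier2, Nr4a1 and Btg2. Nr4a1 stood at 16.5 CPM in HER2 late against 10.6 in wildtype late (log2 0.63, 0.40 to 0.87; relative to the median 0.84). Ier2 stood at 106 against 76.1 CPM (log2 0.47, 0.39 to 0.56; relative 0.68) and Atf3 at 40.0 against 32.3 CPM (log2 0.31, 0.17 to 0.45; relative 0.51). Jun was at 114 against 94.7 CPM (log2 0.27, 0.19 to 0.35; relative 0.47) and Junb at 230 against 194 CPM (log2 0.25, 0.19 to 0.30; relative 0.45). Fos was lower on both scales (relative -0.20), while Zfp36 was at log2 -0.11 (-0.22 to -0.012) as measured and at 0.090 relative to the median. Egr1 likewise was at -0.087 (-0.18 to 0.004) as measured and 0.12 relative to the median.

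**Figure D3:**
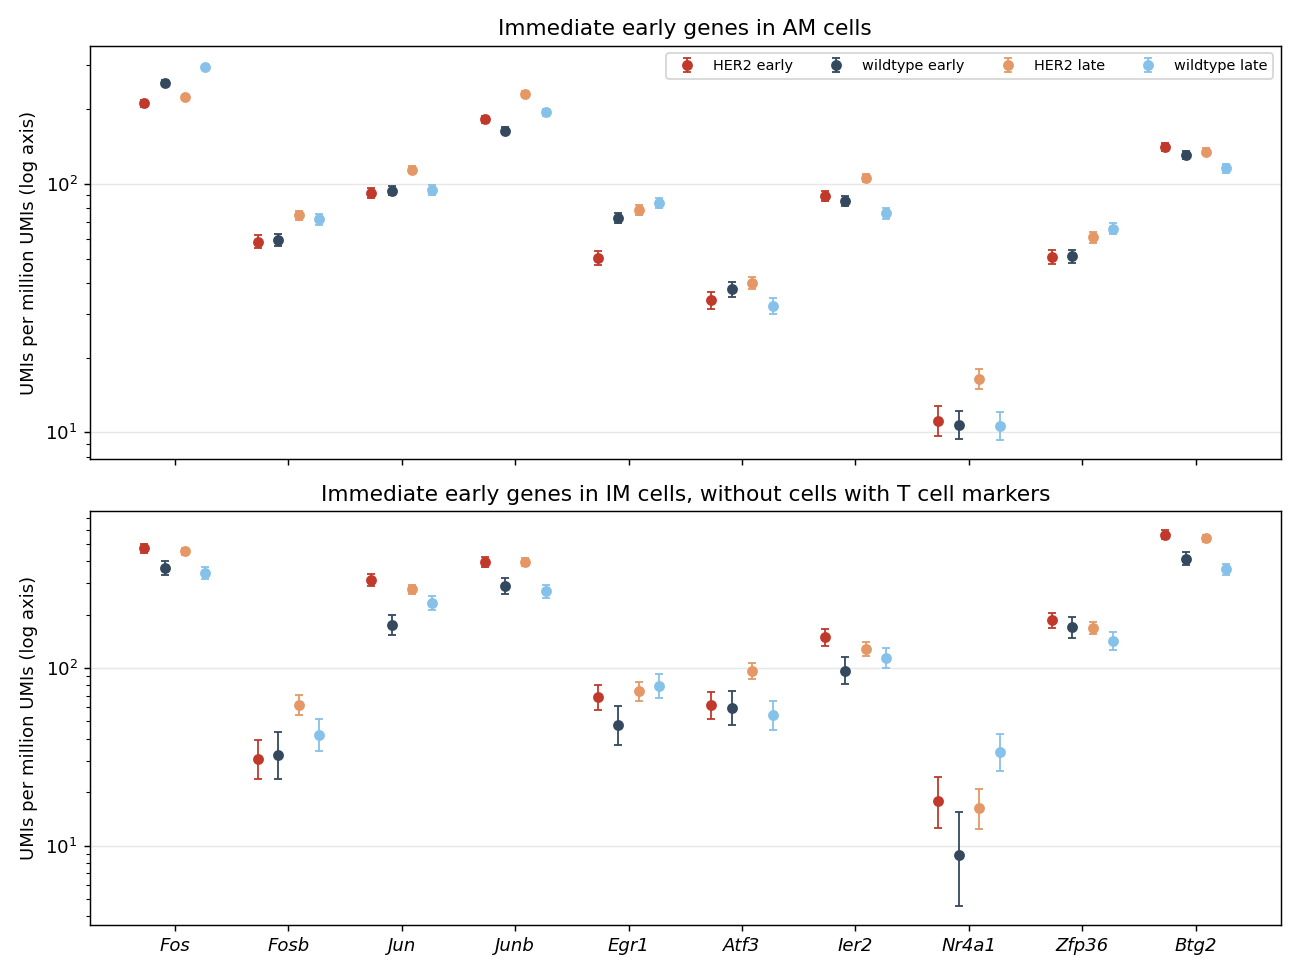
Levels of the 10 genes in CPM (log axis) by library, in AM cells (top) and in IM cells without cells holding T cell markers (bottom); points are single libraries and bars 95% Poisson intervals of counting error. In AM cells Fos is lower in both HER2 libraries, whereas in IM cells it is higher in both.

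In the age comparison of HER2 mice several members were higher in the late library. HER2 early and HER2 late differ in tumour stage as well as in age, and the parts of these cannot be told apart. Of the 10 genes 9 were higher in HER2 late than in HER2 early AM cells, 4 of them by at least 1.25-fold, where 2.12% of 7039 genes were, and none was lower, where 1.65% of genes were. Egr1 stood at 78.6 CPM in HER2 late against 50.6 in HER2 early (log2 0.64, 0.52 to 0.75) and Nr4a1 at 16.5 against 11.1 CPM (log2 0.56, 0.32 to 0.81). Fosb stood at 74.9 against 58.5 CPM (log2 0.35, 0.25 to 0.46) and Junb at 230 against 182 CPM (log2 0.34, 0.28 to 0.40). Btg2, at 135 against 141 CPM, was the one below 0 (log2 -0.063, -0.14 to 0.010). The median log2 of all genes was -0.014 in this comparison, so fewer genes lay above 0 than below it. Free RNA, estimated from barcodes with 10 to 100 UMIs, was richer in these genes in the older libraries: the 10 genes summed to 1056, 1302, 1934 and 1984 CPM in the free RNA of HER2 early, wildtype early, HER2 late and wildtype late. Free RNA made up at most 8.17% of HER2 late AM UMIs, the highest of the 4 libraries, and 3.08% in HER2 early, judged by the lung epithelial genes Scgb1a1 and Sftpc. With free RNA subtracted 1 member was at least 1.25-fold higher in HER2 late, 7 of 10 lay above 0, Fos was at -0.044 and Zfp36 at -0.032, against 0.078 and 0.26 as measured. Nr4a1 was then at 0.015 and Egr1 at 0.51. The share of all genes was not computed with free RNA subtracted, so these counts have no background beside them.

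In wildtype mice the age comparison differed by gene, on a general shift in the upward direction with a median log2 of 0.16 over 7249 genes. As measured, 1 of the 10 was 1.25-fold higher in wildtype late than in wildtype early AM cells (26.5% of genes were) and none was lower (7.73% of genes were). That gene was Zfp36, at 66.0 CPM in wildtype late against 51.1 in wildtype early (log2 0.37, 0.26 to 0.48; relative to the median 0.21). Relative to the median none was higher (10.7% of genes were) and 3 were lower (15.1% of genes were), namely Atf3 (-0.38), Btg2 (-0.34) and Ier2 (-0.33). The summed genes were at log2 0.11 (0.086 to 0.14) as measured and -0.044 relative to the median, so their direction in this comparison depends on the scaling. Both age comparisons and both genotype comparisons draw on the same 4 libraries. Fosb, Jun, Junb, Egr1 and Zfp36 were higher in both late libraries than in both early ones (26.8% of genes), and no member had the opposite order (16.4% of genes). For Jun this rests on 94.7 against 94.0 CPM in wildtype late and early (log2 0.010, -0.078 to 0.098). With free RNA subtracted Zfp36 was at log2 -0.032 for HER2 late over HER2 early.

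IM cells of HER2 mice had more of these messages, as summed CPM, than IM cells of wildtype mice at both stages. The 10 genes summed to 2299 CPM in HER2 early against 1983 in wildtype early (log2 0.21, 0.16 to 0.27), and to 2196 in HER2 late against 1650 in wildtype late (log2 0.41, 0.36 to 0.47). Without the cells that held T cell markers the sums were 2260 against 1661 CPM at the early stage (log2 0.44, 0.37 to 0.52) and 2209 against 1672 CPM at the late stage (log2 0.40, 0.34 to 0.46). Removing those cells therefore raised the early fold over 1.5 times on the log2 scale and left the late fold within its interval. The T cell markers summed to 226 CPM in HER2 early and 2080 CPM in wildtype early IM cells, and to 58.7 CPM in HER2 late and 173 CPM in wildtype late IM cells. B cell markers summed to 277 CPM in HER2 late and 1050 CPM in wildtype late IM cells, and median depth was 5234 and 3219 UMIs per cell in the same order. The part of B cell markers and depth in the late fold was not tested.

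In IM cells Fos, Junb, Atf3 and Ier2 stood higher in each HER2 library than in either wildtype library, an order that 8.55% of 8068 genes had. Egr1 alone of the 10 had the opposite order (27.6% of genes), and none had it without the T marker cells (19.4% of genes). Without the cells holding T cell markers 6 of 10 stood higher in each HER2 library, the same 4 with Jun and Btg2, against 10.2% of 7888 genes. Junb stood at 401 CPM in HER2 early and 397 in HER2 late, against 302 in wildtype early and 270 in wildtype late (log2 0.41 and 0.55 at the early and late stage). Btg2 stood at 564 and 538 CPM in HER2 early and late without the T marker cells, against 413 and 360 CPM in wildtype early and late. Jun was at 314 and 278 CPM in HER2 early and late without those cells, against 174 and 233 CPM in wildtype early and late. Over all IM cells wildtype early had 284 CPM of Jun and 546 CPM of Btg2, so the order of these genes rests on leaving the T marker cells out.

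Counted by size over all IM cells, 2 members were at least 1.25-fold higher in HER2 early (12.3% of 8137 genes) and none lower (27.4%), and 5 were higher in HER2 late (10.2% of 7909 genes) and 1 lower (28.7%). Without the T marker cells 7 were higher at the early stage (19.5% of 7848 genes) and none lower (18.8%), while the late counts stayed at 5 higher (10.4% of genes) and 1 lower (28.4%). Atf3 was at 95.2 CPM in HER2 late against 53.5 CPM in wildtype late (log2 0.83, 0.53 to 1.14). Nr4a1 was the one lower at the late stage, at 16.8 CPM in HER2 late against 32.7 CPM in wildtype late (log2 -0.96, -1.46 to -0.46, from 65 and 74 UMIs). Nr4a1 had few UMIs in IM cells, and its level in the monocyte-marker cells given above was higher than in either library. Monocyte markers summed to 372 CPM in HER2 late and 480 CPM in wildtype late IM cells, and their part in this difference was not tested. The median log2 of all genes was -0.14 for the late comparison over all IM cells, so relative to it Nr4a1 was at -0.82 and Atf3 at 0.97.

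Fos differed in opposite directions in the classes. In AM cells it was lower in HER2 at both stages, and in IM cells it was higher, at 465 CPM in HER2 early against 391 in wildtype early (log2 0.25, 0.12 to 0.38) and 447 in HER2 late against 336 in wildtype late (log2 0.41, 0.29 to 0.54). Without the T marker cells the IM folds were log2 0.36 and 0.40. Fos and Zfp36 were the 2 of 10 members with lower levels in AM and higher levels in IM cells of HER2 mice at both stages, a pattern of 4.50% of 6713 genes. The same 2 members had it without the T marker cells (6.27% of 6684 genes). For Zfp36 the AM differences were small, at log2 -0.007 (-0.13 to 0.12) early and -0.11 late, and the late one was 0.090 relative to the median of all genes. In the free RNA Fos stood at 234 CPM in HER2 early and 384 in wildtype early, and at 433 CPM in HER2 late and 731 in wildtype late. With free RNA subtracted the AM folds of Fos were log2 -0.24 early and -0.46 late.

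**Figure D4:**
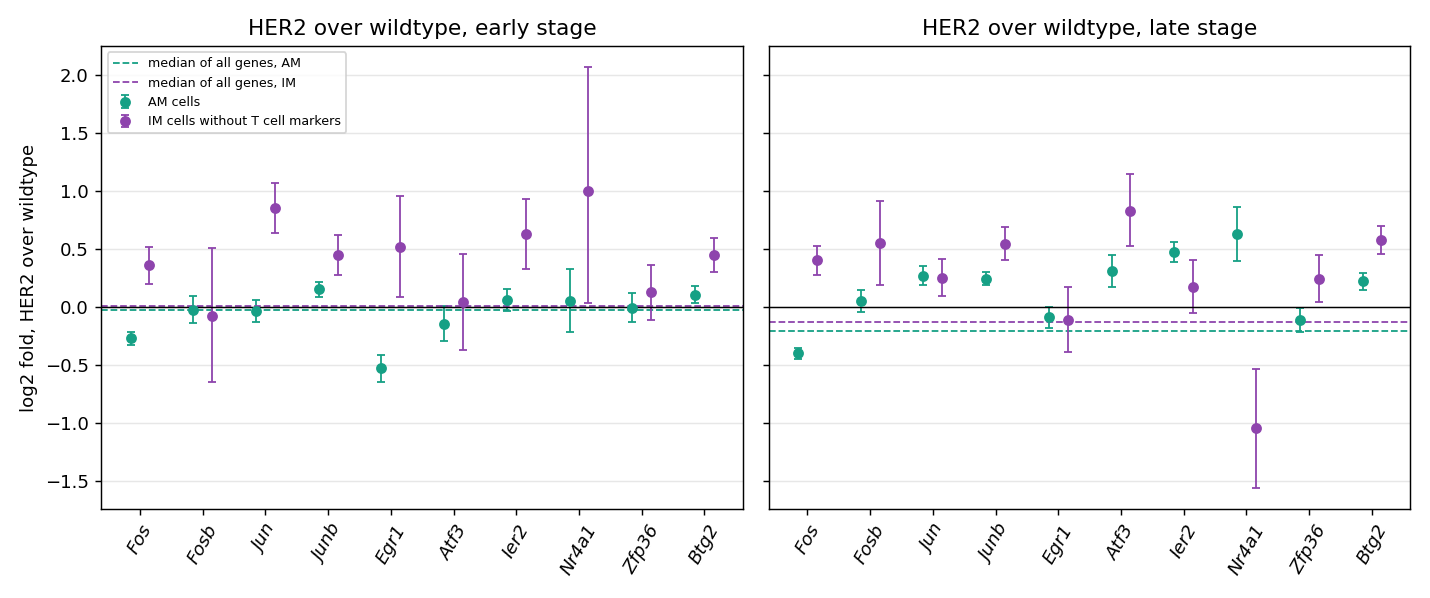
Log2 fold of HER2 over wildtype for the 10 genes at the early (left) and late (right) stage, in AM cells and in IM cells without cells holding T cell markers; bars are exact 95% intervals of counting error and dashed lines the median of all genes. Fos lies below 0 in AM cells and above 0 in IM cells at both stages, and Nr4a1 in late IM cells is at log2 -1.04.

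The age comparison in IM cells showed no common direction. Fosb stood at 61.6 CPM in HER2 late against 33.2 in HER2 early (log2 0.89, 0.51 to 1.28) and Atf3 at 95.2 against 66.0 CPM (log2 0.53, 0.25 to 0.81), and these 2 were the members at least 1.25-fold higher (8.83% of 7800 genes) with none lower (16.1%). Without the T marker cells they were again the 2 members higher (9.67% of 7758 genes) with none lower (15.2%). In wildtype late over wildtype early, Nr4a1 was higher, at 32.7 against 15.3 CPM (log2 1.09, 0.51 to 1.70), and Btg2 lower, at 362 against 546 CPM (log2 -0.59, -0.72 to -0.46), 1 of 10 each way (22.1 and 27.9% of 8231 genes). Without the T marker cells Btg2 was at log2 -0.20 and Jun at 0.42 in that comparison, against -0.32 over all IM cells, with 4 members then higher (31.3% of genes) and none lower (21.1%).

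The other genes of the response were read from lists, whose counts depend on the scale. Relative to the median of all genes 12.5% of genes were at least 1.25-fold higher and 5.38% lower in HER2 late AM cells, and as measured 4.73% were higher and 28.5% lower. In late AM cells, relative to the median of all genes, 2 of 20 measured other early response regulators were at least 1.25-fold higher in HER2 and 1 was lower, with a median of 0.075 against 0.44 for the 10 members. The highest of that list was Jund, another Jun protein, at 895 CPM in HER2 late against 711 in wildtype late, and the lowest was Per1, a clock gene, at 24.3 against 37.3 CPM. Of the inputs to these promoters, such as the SRF, ELK and CREB factors and the MAP kinases, none of 14 measured was 1.25-fold higher or lower on that scale, while 6 were lower and none higher as measured. For the other regulators the counts as measured were 1 higher and 6 lower. Of the partners of Btg2 and Zfp36 in CCR4-NOT decay, 1 of 12 was higher and none lower, and as measured none was higher and 1 lower. Of the feedback genes, 2 of 12 were higher and 1 lower on the relative scale, and none higher and 3 lower as measured. The lowest was Dusp1, a phosphatase of MAP kinases, which stood at 180 CPM in HER2 late against 299 in wildtype late and at 196 in HER2 early against 336 in wildtype early. Of the early cytokines, 3 of 4 measured were higher in late HER2 AM cells relative to the median and 2 as measured, with Osm at 26.0 against 17.2 CPM and Cxcl2 at 36.9 against 25.4 CPM.

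Heat shock genes, which respond to temperature and protein damage, also differed between the libraries. In AM cells Hspa1a stood at 68.8 CPM in HER2 early, 62.3 in wildtype early, 41.1 in HER2 late and 8.16 in wildtype late. Of 8 heat shock genes, 6 were at least 1.25-fold higher in HER2 late than in wildtype late as measured (4.73% of all genes), and 7 were lower in wildtype late than in wildtype early (7.73% of genes). In IM cells without T marker cells 7 of 8 were higher in HER2 late than in wildtype late (10.4% of genes). The part of this library difference in the late comparisons of the immediate early genes was not tested.

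Within each library the 10 genes were higher in a small set of AM cells rich in early cytokines. Cells with 3 or more UMIs of Cxcl2, Ccl3 and Osm, cytokines that recruit or signal to leukocytes, made up 2.52% of HER2 early, 2.94% of wildtype early, 4.24% of HER2 late and 3.20% of wildtype late AM cells. The 10 genes summed to 2569, 2210, 2605 and 2335 CPM in these cells, against 863, 908, 984 and 983 CPM in the remaining AM cells of the same libraries. All 10 were at least 1.25-fold higher in these cells in all 4 libraries, where 2.69% of 7241 genes were. Nr4a1 was at 58.5, 49.9, 65.4 and 40.9 CPM in them, against 9.48, 9.07, 13.4 and 9.29 CPM in the remaining AM cells. Egr1 was at 249, 208, 268 and 309 CPM, against 43.7, 67.3, 66.9 and 73.6 CPM, and Junb at 656, 434, 607 and 566 CPM, against 166, 153, 207 and 178 CPM. Fos differed less, at 496, 527, 454 and 514 CPM against 202, 244, 209 and 285 CPM. The cells were chosen by cytokine UMIs and are deeper, with medians of 5227 against 3692 UMIs in HER2 early and 5952 against 4260 in wildtype early.

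**Figure D5:**
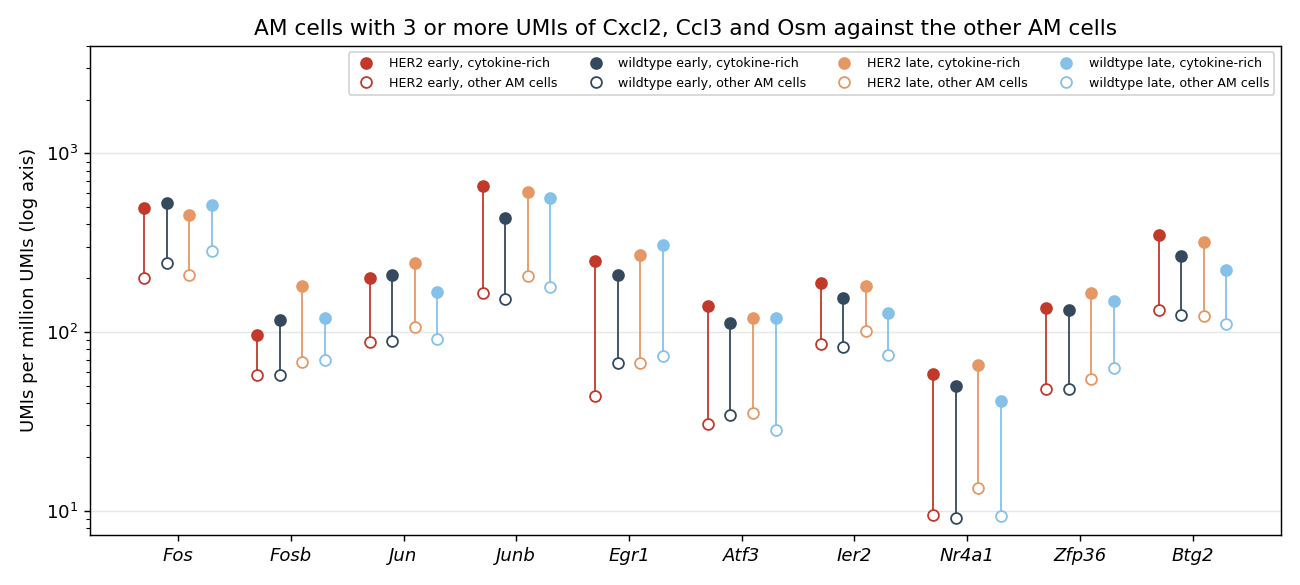
Levels of the 10 genes in CPM (log axis) in AM cells with 3 or more UMIs of Cxcl2, Ccl3 and Osm (filled) and in the other AM cells (open), by library, with a line joining the pair. Every filled point lies above its open one.

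A larger set of AM cells had less of all 10. AM cells in which Gm42418, a transcript that overlaps ribosomal RNA, took over 25% of UMIs made up 27.8, 26.6, 33.4 and 20.4% of AM cells in HER2 early, wildtype early, HER2 late and wildtype late. In these cells the 10 genes summed to 596, 569, 698 and 694 CPM, against 1003, 1050, 1195 and 1101 CPM in the remaining AM cells, and all 10 were at least 1.25-fold lower in all 4 libraries, as were 29.6% of 6962 genes. Gm42418 is part of the total by which CPM is scaled, so a lower CPM of other genes follows in part from the scaling. Without such cells, HER2 late over wildtype late was at log2 0.12 for the sum, with 4 members higher and 1 lower. The share of all genes was not computed without such cells, so these counts have no background beside them. AM cells with 3 or more UMIs of cell cycle genes had 802, 895, 952 and 979 CPM of the 10 genes, against 947, 980, 1113 and 1058 CPM in the remaining AM cells, and no member was 1.25-fold higher or lower in all 4 libraries (6.20 and 0.110% of 7277 genes).

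Single AM cells seldom held many of the 10 at once. After thinning each AM cell to 2000 UMIs, which left out 490, 357, 340 and 171 shallower cells, 30.7% of HER2 early, 28.4% of wildtype early, 27.4% of HER2 late and 25.2% of wildtype late cells held none of the 10. At least 5 were held by 3.06% (95% Clopper-Pearson interval 2.54 to 3.65), 2.75% (2.29 to 3.27), 4.40% (3.87 to 4.99) and 3.0% (2.49 to 3.57) of cells in the same order. These are shares of 1 library each, and the intervals cover the sampling of cells only. Free RNA, highest in HER2 late, was not subtracted here, and its part was not tested. The genes whose level over AM cells was most like the summed 10, by Pearson's r on log counts and ranked by the lowest of the 4 libraries among 6551 genes, were Dusp1 (lowest r 0.27), Rgs1 (0.14), Neat1 (0.13), Trib1 (0.12), Picalm (0.11), Osm (0.11), Cxcl2 (0.11) and Ccnl1 (0.11). Among pairs of members Junb and Egr1 were the most alike, at r 0.15 to 0.23, followed by Fos and Junb at 0.13 to 0.19. Such values over 3923 to 5362 cells of a library are descriptions of sparse counts within that library.

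The authors' deposited averages over AM cells gave a second view of the genotype comparison. In the authors' deposited table, whose columns sum to 10000, Fos stood at 2.06 in HER2 early against 2.26 in wildtype early and at 2.07 in HER2 late against 2.71 in wildtype late. In that authors' deposited table the sign of the fold matched that of the UMI sums for 9 of the 10 genes early, all but Fosb, and for 10 of 10 late. The largest gap between the log2 folds was 0.19 early and 0.076 late. Egr1 was at log2 -0.33 early in the authors' deposited table, where the UMI sums gave -0.53. Fos was at log2 -0.14 early in that table, a smaller fold than the -0.27 of the UMI sums and outside its interval (-0.33 to -0.21). At the late stage Fos was at -0.39, against -0.40 from the UMI sums.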

How the data were processed

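The authors deposited raw UMI counts per gene and barcode for each library, and a signal table per stage of average AM levels, scaled so that each column sums to 10000. Per the file headers the matrices come from Cell Ranger 4, whereas the submitters' processing notes list Cell Ranger 5.0.1 and the mm10 build. How the averaged cells were chosen, and the sort antibodies, are not given in the sources used here. From the counts, cells were filtered and classed as described, UMIs were summed per library and class, and folds were taken with exact conditional binomial intervals. Classes were tested with edgeR 4.0.16 (R 4.3.3; TMM, filterByExpr, library as a block), with DESeq2 1.42.0 as an alternative. The library pairs the classes because both were taken from the same library. Genes whose mean over the compared libraries was under 10 CPM were left out of fold counts. Library totals were 28786682 to 39228655 UMIs. Free RNA was the sum of barcodes with 10 to 100 UMIs, and its share in AM cells an upper estimate. Both calculations were tested on simulated counts. The members and gene lists were chosen with earlier results of these data known. All 10 members are named, with the 8 genes most like them over AM cells with a UMI in at least 2% of cells, and from each list only its highest and lowest folds. Promoters and gene positions are from RefSeq and GENCODE (GRCm38). Of the 10 genes, Jun overlaps Junos, Junb Prdx2 and Zfp36 Gm44710 on the opposite strand, and none overlaps a counted gene on its own strand.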

Additional observations from a re-analysis of the deposited data

Results flagged for a closer look

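Several genes had folds in AM and IM cells whose intervals lay on opposite sides of 0. The difference between the classes was not tested, since each group is 1 library. Fos was at log2 -0.27 in AM and 0.25 in IM cells for HER2 early over wildtype early, and at -0.40 and 0.41 for HER2 late over wildtype late. For wildtype late over wildtype early Fos was at 0.21 in AM and -0.22 in IM cells, Junb at 0.25 and -0.16, and Zfp36 at 0.37 and -0.30. For HER2 late over wildtype late Nr4a1 was at 0.63 in AM and -0.96 in IM cells, and Zfp36 at -0.11 and 0.24. For HER2 late over HER2 early Jun was at 0.31 in AM and -0.28 in IM cells, and Ier2 at 0.24 and -0.25. Without the cells holding T cell markers, the IM values for wildtype late over wildtype early were -0.10 for Fos, -0.10 for Junb and -0.26 for Zfp36.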

How the results depend on the processing

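The class tests called 7 to 8 members for IM and 7 to 9 for other cells over every alternative except library totals in place of TMM, which gave 9 and 8; without the library block the counts were 7 and 8. Leaving out 1 library at a time gave 7 to 8 members for IM and 7 to 9 for other cells, but not the same ones: in IM cells Fos was lost without HER2 early, where Egr1 was gained, and without HER2 late, where Nr4a1 was gained, and Ier2 was gained without wildtype early. DESeq2 called 7 and 8. In the main tests 7466 of 11897 genes were called for IM and 8126 of 12622 for other cells. With library totals 7499 and 8306 of these genes were called. Without T marker cells 7355 of 11884 genes were called for IM. For the remaining alternatives of the class tests the share of all genes is not given here. With library totals Egr1 in IM cells reversed to log2 0.16 and Zfp36 in other cells to 0.12. For the summed genes in AM cells, HER2 early over wildtype early was -0.025 with every cell weighing the same, -0.096 under the stricter class rule and 0.008 in the authors' deposited averages, where it reversed. HER2 late over wildtype late was 0.001 at a 5% mitochondrial limit, 0.26 relative to the median of all genes, 0.14 when scaled without Gm42418, mitochondrial and ribosomal protein genes, 0.12 without cells over 25% Gm42418, and reversed to -0.015 with free RNA subtracted. Wildtype late over wildtype early was 0.15, -0.044 (reversed), 0.054 and 0.068 under the first 4 of these settings, 0.14 with equal cells and 0.080 under the stricter rule. HER2 late over HER2 early was 0.20 with equal cells and 0.13 with free RNA subtracted. In IM cells, HER2 early over wildtype early was 0.38 at the 5% limit, 0.31 relative to the median, 0.29 without cycling cells and 0.44 without T marker cells. HER2 late over wildtype late was 0.55 relative to the median. Wildtype late over wildtype early was -0.048 at the 5% limit, -0.36 with equal cells and 0.009, reversed, without T marker cells. HER2 late over HER2 early was -0.002 at the 5% limit, -0.016 relative to the median and -0.14 with equal cells. Of single genes, Zfp36 reversed to 0.090 relative to the median (HER2 late over wildtype late, AM), Fos to -0.044 and Zfp36 to -0.032 with free RNA subtracted (HER2 late over HER2 early, AM), and Jun to 0.42 without T marker cells (wildtype late over wildtype early, IM). Counts of members at least 1.25-fold higher moved over 1.5 times as well. Of the settings listed next, the share of all genes was computed only as reported, relative to the median and without T marker cells. Relative to the median, 18.6% of genes were that much higher in HER2 late over wildtype late IM cells. In AM cells, HER2 late over wildtype late had 2 as reported, 1 with free RNA subtracted, 4 without cycling cells and 5 when scaled without Gm42418, mitochondrial and ribosomal protein genes, and HER2 late over HER2 early had 4 as reported, 2 at the 5% limit and 1 with free RNA subtracted. In IM cells, HER2 early over wildtype early had 2 as reported, 4 with free RNA subtracted, 6 at the 5% limit, 6 without cycling cells and 7 without T marker cells, and HER2 late over wildtype late had 5 as reported and 8 relative to the median. Of single-gene folds in AM cells, 406 values stayed within the counting interval of the reported fold, 51 moved outside it and 3 reversed. In IM cells 440 stayed within it, 39 moved and 1 reversed. The T marker setting and library totals were chosen after seeing the data, and the causes were not tested. With 1 library per group, counting error is the only error that could be given between libraries.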
